A study of Mus musculus with 2 samples.

Results

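C/D box snoRNA fragments were taken as the sequences of 16–48 nt that lay exactly, on the sense strand, inside a transcript of a GENCODE M21 mouse snoRNA gene whose name starts with Snord. This rule gave 98 of the 55450 genes in the transcript set. They carry 97 symbols, since Snord80 has a nested pair of entries that share all their reads. Of these symbols 95 had reads, and the 2 without were copies of the same snoRNA, Snord116l12 and Snord116l14. The fragments comprised 2113 of the 1132769 distinct sequences of the series, 1622 of them in the wild-type (WT) library and 1282 in the Hsp90α knockout (KO) library. They accounted for 13214 of 6409305 WT reads and 8971 of 5589326 KO reads, or 0.206% (95% Wilson interval 0.203 to 0.210) and 0.161% (0.157 to 0.164) of the libraries. The antisense strand of the same transcripts held 1 read.

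The libraries were made to compare fetal testes with and without Hsp90α, a cytosolic chaperone encoded by Hsp90aa1, in the period when fetal germ cells make piRNAs. The WT and the Hsp90α KO library each came from 20 pooled whole testes of C57BL/6 embryos from natural mating at embryonic day 16.5. The KO mice keep Hsp90β, encoded by Hsp90ab1, and a whole testis holds germ cells together with support, interstitial, blood and vessel cells. Each genotype had 1 library, so the differences below have no replicate check, and all intervals cover counting error only. PCR copies of a molecule cannot be told from separate molecules in these counts. Hsp90aa1 itself gave 22 WT and 37 KO sense reads, with a KO/WT ratio of 1.66 (0.952 to 2.95). Such short pieces of mRNA do not check the deletion.

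C/D box snoRNAs are nucleolar RNAs, most of them cut from introns of host genes, that guide the ribose methylation of ribosomal RNA or help to process its precursor. A C box near the 5′ end and a D box near the 3′ end fold together and are bound by a core of proteins that includes NOP56, NOP58 and fibrillarin, and many have a further, less conserved pair of boxes in the middle. Short stable fragments of these RNAs are known from many tissues.

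The leading fragments had a common form, and the sequences of 8 of the 12 Snord genes with the most reads are shown here because they carry it. Each is the sequence with the most reads of its gene, with its last CTGA, the D box motif, in capitals.

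Snord57: ggaaaggatgaacgaacttggcCTGAcc
Snord104: ccgggtgatgcgaatcgtaatCTGAgc
Snord2: ctgaaatgaagagaatactcttgCTGAtc
Snord93: tggccaaggatgagaactctaacCTGAct
Snord12: gccagttttgtCTGAtg
Snord99: gcggatatgggaCTGAga
Snord69: agcagtgatgacagattggatCTGAct
Snord66: accacatgatgggattgaggacCTGAggaa

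In GRCm38 coordinates these fragments lie at chr2:130278017-130278044 for Snord57, chr11:106501036-106501062 for Snord104, chr16:23108989-23109017 for Snord2 and chr5:23852210-23852238 for Snord93. Those of Snord12, Snord99 and Snord66 lie at chr2:167065342-167065358, chr4:132310741-132310758 and chr16:20684284-20684313. All these are on the plus strand, and the Snord69 fragment is on the minus strand at chr14:31014333-31014359. Of these 8 sequences 7 ended exactly 2 nt after CTGA, and that of Snord66 ended 4 nt after it. The leading fragments of the other 4 genes, Snord52, Snord50a, Snord50b and Snord110, were longer than 30 nt and are not printed.

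Over the family as a whole, most reads ended 2 nt after a CTGA. In WT 71.7% (70.9 to 72.5) of reads ended there, and in KO 69.1% (68.1 to 70.0). Of the positions in these snoRNAs 2.82% lie 2 nt after a CTGA. That share treats all positions alike, whereas the D box stands near the 3′ end. Counting each distinct sequence once, 31.8% ended there, and 70 of the 98 gene entries gave at least 1 such fragment. The neighbouring distances held few reads, with 2.32% of WT reads at 1 nt and 4.17% at 3 nt after the motif.

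Fragments of the other RNA classes seldom ended at this distance. For H/ACA box snoRNAs, the pseudouridine guides, 0 of 259 WT and 0 of 264 KO reads did, which allows a share of up to 1.16% and 1.14%. The share was 0.728% in WT and 0.482% in KO for snRNAs, 0.517% and 0.460% for rRNA, and 0.207% and 0.191% for miRNA hairpins. Among snoRNAs with names of another kind, which were not sorted by box type here, it was 29.96% (29.4 to 30.6) and 39.4% (38.5 to 40.4).

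The motif used was in many cases not the terminal D box. The last CTGA of the snoRNA preceded the end of 44.7% of WT and 41.02% of KO reads, and an earlier CTGA that of 26.96% and 28.1%. The Snord57 fragment printed above is of the second kind: it covers nt 2–29 of the 72-nt snoRNA, and its CTGA lies in the middle of the RNA. Of the gene entries, 96 of 98 have a CTGA in their last 20 nt.

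The starts of 5′ fragments were set against the C box. TGATGA, the C box motif searched for here, stands in the first 20 nt of 70 of the 98 entries, and in a few, such as Snord12, it overlaps a CTGA. Of the 5′ fragments of these snoRNAs, 63.4% of 1875 WT and 58.7% of 1197 KO reads started 5 nt before it, and 33.7% and 37.3% started 6 nt before it. These reads had been selected to start within 3 nt of the annotated end, so the distance follows in large part from that choice, and they are 1875 of 4169 WT and 1197 of 3101 KO 5′ reads. Snord57 and Snord93 hold no TGATGA and are not among them.

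**Figure D1:**
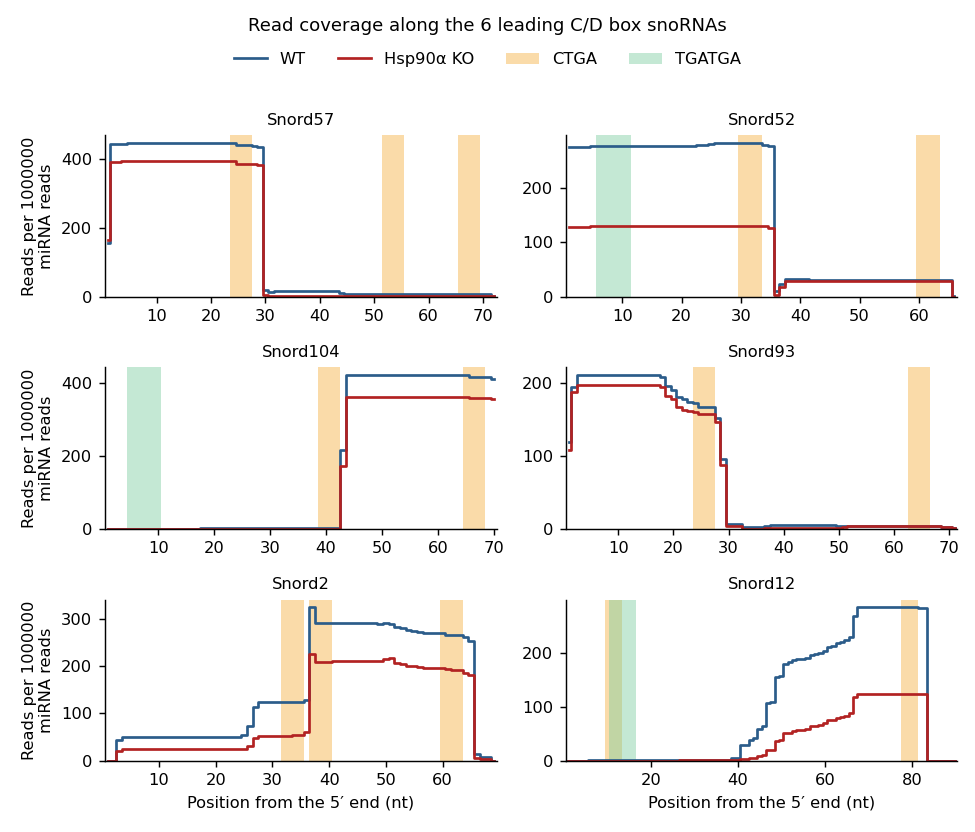
Reads covering each position of the 6 leading C/D box snoRNAs, in reads per 1000000 miRNA reads (vertical axis), against the position from the annotated 5′ end in nt (horizontal axis). Blue lines are WT and red lines Hsp90α KO, 1 library each, with CTGA shaded orange and TGATGA green. In all 6 coverage drops within a few nt after a CTGA, or runs to the annotated 3′ end (Snord104). The KO/WT height differs along a snoRNA: Snord52 is at 278 and 130 at nt 34 but at 31.7 and 28.9 at nt 38.

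A fragment was called 5′ or 3′ when it reached within 3 nt of that annotated end, and inner when it reached neither. By this rule 31.5% of WT and 34.6% of KO reads were 5′ fragments, 32.4% and 33.4% were 3′ fragments, and 36.1% and 32.01% were inner. Most inner fragments stopped only a little short of an end, since with a limit of 10 nt the inner share was 7.78% in WT and 6.59% in KO. Each snoRNA had its own preferred piece. Of the 59 genes with at least 50 reads over both libraries, 21 gave mainly 5′ fragments, 18 mainly 3′ fragments and 19 mainly inner ones.

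Examples of the 3 kinds stood among the leading genes. Snord57 and Snord93 gave 98.3% and 98.1% of their reads from the 5′ end, and Snord104 and Snord66 gave 98.9% and 96.2% from the 3′ end. Snord2 gave 84.1% inner reads, which stopped 4 nt before the annotated end. Snord50a was split, with 53.7% of reads from the 5′ end and 44.1% from the 3′ end.

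Fragment lengths had a main peak at 28 nt and a second at 35 nt. In WT 2377 reads were 28 nt long and 1165 were 35 nt long, and in KO 1910 and 521. The median length was 29 nt in WT and 28 nt in KO, and the mean 30.2 and 27.8 nt. Fragments of 33–48 nt made up 35.3% of the WT but 17.2% of the KO reads, whereas those of 16–23 nt made up 12.3% and 19.3%.

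**Figure D2:**
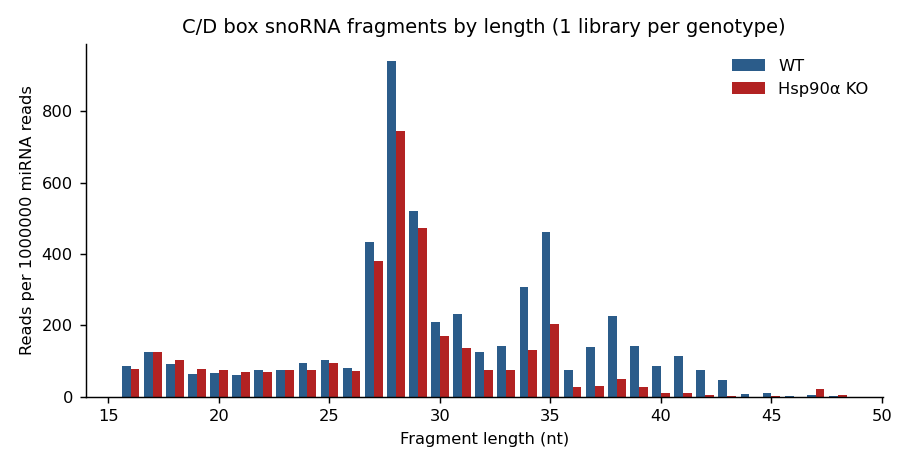
C/D box snoRNA fragments of each length (horizontal axis, nt) in reads per 1000000 miRNA reads (vertical axis), with blue bars for the WT and red bars for the Hsp90α KO library. At 19 nt the bars are at 62.6 and 79.3, both libraries peak at 28 nt, and the second peak, at 35 nt, is 462 in WT and 203 in KO.

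The bases at the positions that mark primary and secondary piRNAs, a uracil in the first and an adenine in the tenth place, were not enriched. The first base was T in the deposited letters for 26.3% of WT and 26.8% of KO reads, against 72.6% and 71.5% for miRNA hairpins. The tenth base was A in 17.9% and 16.7%.

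To compare genotypes, counts were divided by the reads inside miRNA hairpins, 2523084 in WT and 2561491 in KO. C/D fragments amounted to 5237 reads per 1000000 miRNA reads in WT and 3502 in KO. Their KO/WT ratio was 0.669 (exact 95% interval 0.651 to 0.687), and it turned to 1.28 when the libraries were scaled by TMM and to 1.22 by median-of-ratios factors over all genes. These scalings centre on genes that are mostly lower in KO and raise every log2 ratio by 0.94 and 0.87, so that miRNA-scaled ratios above 0.522 or 0.547 turn to above 1. With all reads of the library as the base the ratio was 0.779. In such bulk RNA fewer cells of a type and less RNA per cell cannot be told apart.

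The ratio depended on fragment length. At 16–19 nt 927 WT and 985 KO reads gave 1.05 (0.956 to 1.15), and at 20–23 nt 703 and 747, also 1.05 (0.943 to 1.16). Both intervals include 1. At 24–27 nt 1800 and 1597 reads gave 0.874 (0.816 to 0.935), at 28–32 nt 5120 and 4101 reads gave 0.789 (0.757 to 0.822), and at 33–48 nt 4664 and 1541 reads gave 0.325 (0.307 to 0.345). At single lengths the ratio was 0.441 at 35 nt, 0.221 at 38 nt and 0.0964 at 41 nt.

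Quotients of these ratios need no base for scaling. The 28–32 nt ratio divided by the 16–23 nt ratio was 0.754 (Fisher's exact conditional interval 0.696 to 0.817), and the 33–48 nt ratio divided by the 28–32 nt ratio was 0.413 (0.384 to 0.443). They compare these 2 libraries, not the genotypes.

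The fall with length was not particular to C/D fragments. At 33–48 nt the ratio was 0.334 (0.281 to 0.394) for rRNA, 0.329 (0.294 to 0.367) for miRNA hairpins, 0.527 (0.448 to 0.618) for snRNAs, 0.560 (0.342 to 0.901) for H/ACA box snoRNAs and 0.379 for all other reads. For snoRNAs with names of another kind it was 0.181 (0.173 to 0.189), from 14069 WT and 2582 KO reads, and the C/D ratio divided by it was 1.80 (1.68 to 1.93). These 2 values depend strongly on 1 entry, Gm26202. It had 9288 WT and 1240 KO reads of 16–48 nt, of which only 193 and 176 were of 16–32 nt. The C/D ratio divided by the rRNA ratio at this length was 0.975 (0.817 to 1.17), whereas divided by the snRNA ratio it was 0.618 (0.521 to 0.734). At 28–32 nt the ratio of all other reads, 0.559, was below that of C/D fragments, while the snRNA ratio was 1.06 (0.912 to 1.24). The C/D ratio divided by the snRNA ratio there was 0.742 (0.633 to 0.870), and divided by the H/ACA ratio it was 0.555 (0.326 to 0.931). The cause of the shortage of long reads in the KO library was not tested.

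**Figure D3:**
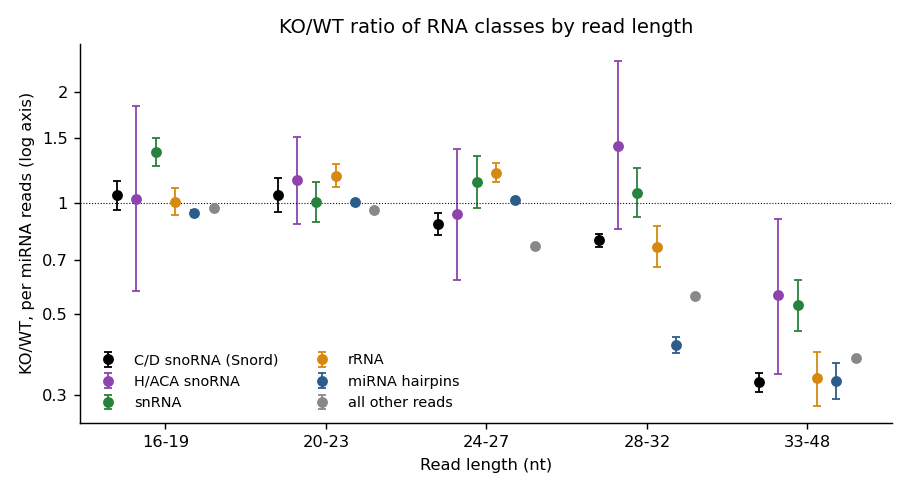
KO/WT ratio per miRNA reads (vertical log axis) against read length class in nt (horizontal axis) for C/D fragments (black) and 5 other RNA classes. Points are ratios of 1 library each and bars exact 95% counting intervals. C/D fragments go from 1.05 at 16–19 nt to 0.325 at 33–48 nt, and every class has its lowest ratio at 33–48 nt.

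By the part of the snoRNA they came from, the fragments differed less. The KO/WT ratio was 0.733 (0.699 to 0.768) for 5′, 0.690 (0.659 to 0.723) for 3′ and 0.593 (0.566 to 0.622) for inner fragments. Within 33–48 nt it was 0.440 (0.399 to 0.484) for 5′, 0.276 (0.242 to 0.313) for 3′ and 0.278 (0.253 to 0.304) for inner fragments. The shares ending 2 nt after CTGA in this length class were 74.7% in WT and 74.8% in KO, with intervals of 73.4 to 75.9 and 72.5 to 76.9 that overlap.

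Few genes supplied most reads. Snord57, in an intron of Nop56, led with 8.70% of WT and 11.4% of KO fragment reads. The leading 5 genes, Snord57, Snord104, Snord2, Snord52 and Snord93, held 33.2% and 38.9%, and the leading 12 held 56.2% and 61.9%. Of the 97 symbols 81 lie in introns of a host gene, 11 within annotated exons, 2 overlap an exon and 3 have no host, and 25 had fewer than 10 reads. Sequences found in several Snord genes made up 2.65% of WT and 2.98% of KO reads, and they were counted for each gene. Sequences also found in another structural RNA, mostly duplicate snoRNA entries under other names, made up 7.68% and 8.48%, and their source cannot be told apart.

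The guides of small-subunit rRNA methylation among the leading genes were Snord57, Snord93, Snord66 and Snord110. Snord57 had 1150 WT and 1019 KO reads, with a ratio of 0.873 (0.801 to 0.9504). Snord93 had 543 and 514 reads, a ratio of 0.932 (0.825 to 1.05), and Snord66 in Eif4g1, a translation initiation factor gene, had 392 and 344 reads, 0.864 (0.746 to 1.002). These 3 give short fragments. Snord110, in an intron of Nop56 like Snord57, had 391 and 160 reads and a ratio of 0.403 (0.333 to 0.486). Its fragments of 33–48 nt numbered 291 and 63, and those of 16–32 nt 100 and 97. The ratio of Snord110 divided by that of its neighbour Snord57 was 0.462 (Fisher's exact conditional interval 0.375 to 0.568).

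Guides of large-subunit rRNA methylation made up most of the others. Snord104 had 1065 and 930 reads, with a ratio of 0.860 (0.787 to 0.9401). Snord2, in an intron of Eif4a2, had 859 and 621 reads, 0.712 (0.641 to 0.790), of which 262 and 83 were of 33–48 nt. Snord52 had 774 and 406 reads, 0.517 (0.457 to 0.583), most of them in a single 35-nt 5′ fragment with 668 and 313 reads. Its fragments of 16–32 nt numbered 67 and 77.

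Snord12 lies in Zfas1, a noncoding host gene. It had 722 and 322 reads, a ratio of 0.439 (0.384 to 0.502), and 712 and 317 of these reads ended at nt 83 like the fragment shown above, while the starts with at least 10 reads ran from nt 41 to nt 68. Snord69, in an intron of the nucleolar GTPase gene Gnl3, had 506 and 358 reads, 0.697 (0.607 to 0.800). Snord50a had 485 and 317 reads and Snord50b 429 and 285, with ratios of 0.644 and 0.654. Both lie in Snhg5 and share their leading fragment, so that their counts are not independent.

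Of the 59 genes with at least 50 reads, 37 had an interval below 1 and only Snord99 had an interval above 1. Over all 7731 genes at this depth 6194 had an interval below 1 and 110 an interval above 1. Snord99 had 400 WT and 477 KO reads, with a ratio of 1.17 (1.03 to 1.34), and its fragments were almost all of 16–32 nt, 381 and 472. Its printed 18-nt fragment had 56 and 85 reads, a ratio of 1.495 (1.05 to 2.13).

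**Figure D4:**
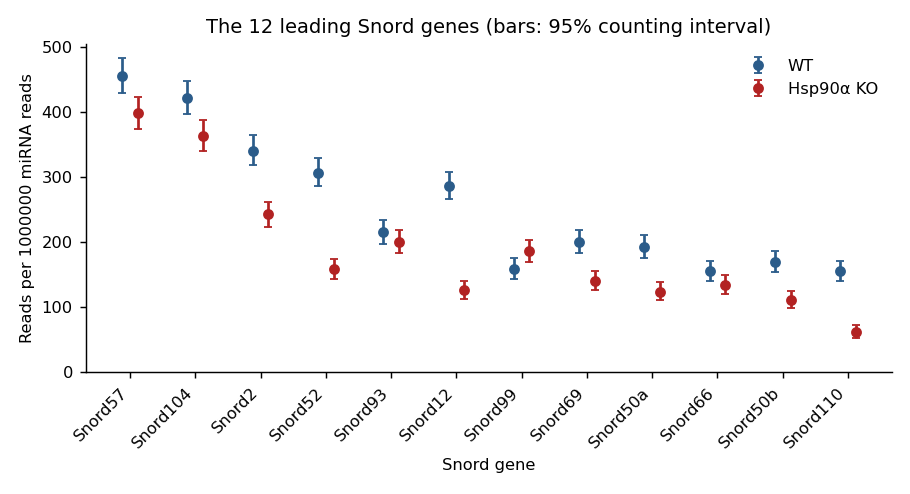
Fragment reads of the 12 leading Snord genes (horizontal axis) in reads per 1000000 miRNA reads (vertical axis, from 0), with blue points for the WT and red points for the Hsp90α KO library and bars for exact Poisson 95% intervals. Snord57 is at 456 in WT and 398 in KO, Snord12 at 286 and 126, and Snord99 alone is higher in KO, at 159 and 186.

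Over the 59 genes with at least 50 reads, 30 were lower in KO by 1.5-fold or more and 0 were higher, a share of 50.8% lower. Over all 7731 genes with sense reads at this depth 79.1% were lower and 0.375% higher. Among the small RNA classes 37.1% of 542 miRNA genes, 3.46% of 231 snRNA genes and 0 of 4 H/ACA box snoRNA genes were lower. In all these gene counts a sequence found in several genes was counted in full for each, so that such genes are not independent. The snRNA genes had a median ratio of 0.808, against 1.08 for snRNA reads each counted once. The median ratio was 0.661 for Snord genes (range 0.190 to 1.17) and 0.387 for all genes. No p-value was computed across genes with 1 library a genotype. By TMM scaling 4 of the 59 were lower and 20 higher, and by median-of-ratios scaling 5 and 19. The share of all genes past 1.5-fold was not counted at these scalings, so these counts have no background. The median ratio of all genes was 0.742 by TMM and 0.708 by median of ratios.

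Restricted to fragments of 16–32 nt, a limit chosen after seeing the data, 11 of 46 genes were lower, or 23.9%, and 0 were higher. The background at this length was 78.7% lower and 0.486% higher among 7615 genes. The median of the 46 genes was 0.848. The 11 included Snord49a with 276 and 171 reads of this length, a ratio of 0.610 (0.501 to 0.741), Snord88a with 84 and 51 reads, 0.598 (0.414 to 0.857), and Snord118, described below.

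Among Snord genes, those with mainly long fragments had the lower ratios. Of the 18 genes with most of their reads at 33–48 nt, 17 were lower by 1.5-fold or more, and of the other 41 genes 13 were. Over all 7731 genes 79.1% were lower, and this share was not split by read length. Of 33 genes with at least 20 reads in both length ranges, 32 had a lower ratio at 33–48 nt than at 16–32 nt. The exception was Snord91a, with 38 and 23 short and 27 and 21 long reads. The median ratio of the 33 genes was 0.817 for short and 0.312 for long fragments. These counts describe 1 pair of libraries, in which reads of that length were fewer in KO for every RNA class shown above. The 2 length ranges were not compared over all genes.

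**Figure D5:**
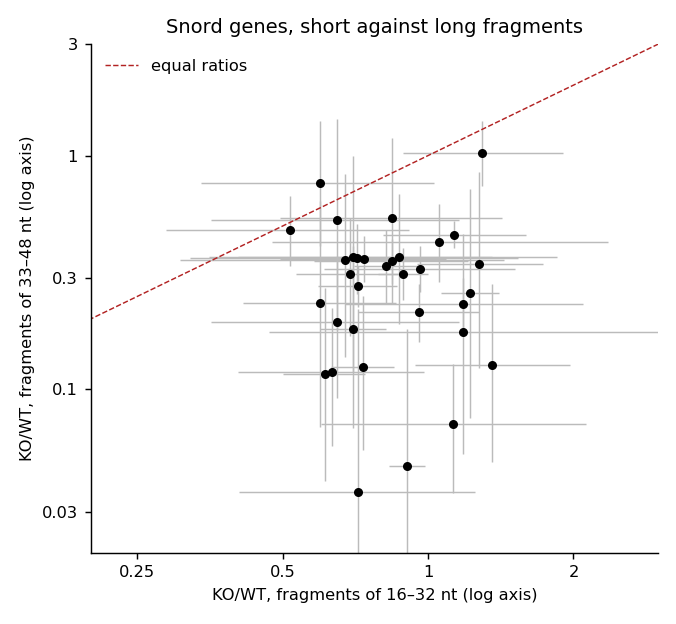
KO/WT ratio of fragments of 33–48 nt (vertical log axis) against that of 16–32 nt (horizontal log axis) for the 33 Snord genes with at least 20 reads in each range. Grey bars are exact 95% counting intervals, cut at the edge of the axes, and the dashed line marks equal ratios. All points but that of Snord91a lie below the line.

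The lowest ratios among genes with at least 50 reads belonged to snoRNAs hosted by ribosomal protein genes and Gas5. Snord68, in Rpl13, had 187 WT and 36 KO reads, a ratio of 0.190 (0.129 to 0.272), although its fragments of 16–32 nt numbered 21 and 24. Its most read sequence, of 41 nt, had 80 and 3 reads. Snord72 in Rpl37 had 79 and 17 reads, 0.212 (0.118 to 0.361), Snord33 in Rpl13a had 344 and 105 reads, 0.301 (0.239 to 0.375), and Snord80 in Gas5 had 147 and 47 reads, 0.315 (0.222 to 0.440). Snord4a, in Rpl23a, had 88 and 32 reads, 0.358 (0.231 to 0.542).

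The highest ratios after Snord99 had intervals that include 1. Snord42a in Rpl23a had 61 and 71 reads, a ratio of 1.15 (0.803 to 1.64), Snord55 had 132 and 151 reads, 1.13 (0.886 to 1.43), Snord70 in Nop58 had 43 and 48 reads, 1.10 (0.713 to 1.70), and Snord87 in Snhg6 had 101 and 112 reads, 1.09 (0.827 to 1.44). For Snord55 the value rests on a single sequence. A 47-nt sequence, nt 2–48 of the snoRNA, had 0 WT and 50 KO reads, at least 16.4-fold higher in KO taking the floor of 3 reads in WT. Without it Snord55 had 132 and 101 reads and a ratio of 0.754 (0.576 to 0.984). The same sequence supplied 50 of the 54 KO reads of 47 nt, a length with 11 WT reads.

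In the opposite direction, 3 sequences with at least 20 reads were read in WT only, a 42-nt sequence of Snord68 with 43 reads and 40-nt sequences of Snord2 and Snord110 with 23 and 20. They were at least 14.6-, 7.78- and 6.77-fold lower in KO by the same floor. All 4 sequences with at least 20 reads that were read in only 1 library were of 40–47 nt.

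Neighbours in a host gene could be compared as groups. The 4 Snord genes in introns of Rpl13a, which encodes a protein of the large ribosomal subunit, had 755 WT and 282 KO reads together, a ratio of 0.368 (0.320 to 0.422), and all 3 of them with at least 50 reads were lower by 1.5-fold or more, against 79.1% of all genes. Snord32a, Snord33 and Snord35a had 354 and 145, 344 and 105, and 38 and 17 reads. At 16–32 nt the same group had 88 and 96 reads, a ratio of 1.07 (0.796 to 1.45).

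The 3 Snord genes of Gas5, a growth-arrest RNA whose introns hold the snoRNAs, had 310 and 152 reads, 0.483 (0.395 to 0.588), and at 16–32 nt 213 and 139 reads, 0.643 (0.515 to 0.800). TMM and median-of-ratios scaling turn the second of these to 1.23 and 1.17. Both genes with at least 50 reads were lower by 1.5-fold or more, against 79.1% of all genes. They were Snord80, given above, and Snord78 with 137 and 92 reads, a ratio of 0.661 (0.502 to 0.868). Snord78 gave no fragment over 32 nt, so that its ratio does not rest on long fragments. Its leading fragment, nt 2–29 of the snoRNA, ends 2 nt after CTGA like most of those shown above. It lies at chr1:161036985-161037012 on the plus strand.

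Snord78: tgtaatgatgttgatcaaatgtCTGAgc

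The Snord14 genes in introns of Hspa8, which encodes a heat shock cognate chaperone, had 53 and 53 reads together, a ratio of 0.985 (0.660 to 1.47). Snord14c had 51 and 48 reads and Snord14d 44 and 46, most of them in sequences the copies share. Of the Snhg1 introns only Snord22 carries a name of this kind, with 27 and 24 reads and a ratio of 0.876 (0.484 to 1.58).

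Several members act in pre-rRNA processing, and the Snord14 (U14) genes among them also guide methylation. As a list of 7 genes, Snord13, Snord14a, Snord14c, Snord14d, Snord14e, Snord22 and Snord118 had 430 and 315 reads, a ratio of 0.722 (0.622 to 0.836), which TMM and median-of-ratios scaling turn to 1.38 and 1.32. Of the 5 with at least 50 reads 1 was lower by 1.5-fold or more and 0 were higher, against 79.1% and 0.375% of all genes. That gene was Snord118, the U8 snoRNA needed for maturation of the large-subunit rRNAs, with 310 and 203 reads and a ratio of 0.645 (0.538 to 0.772). TMM and median-of-ratios scaling turn this ratio to 1.24 and 1.18. Snord13, the U13 snoRNA, had 38 and 35 reads, 0.907 (0.556 to 1.48).

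Nearly all reads of Snord118 had the same sequence. A single 28-nt inner sequence, nt 48–75 of the 135-nt snoRNA, made up 283 of its 310 WT and 162 of its 203 KO reads, or 91.3% and 79.8%. It lies at chr11:69073474-69073501 on the plus strand and is shown because it holds no CTGA. It carries TGATGA, in capitals, 5 nt from its start, the most common distance among the 5′ fragments counted above.

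Snord118: gaaaaTGATGAttggagcttgcatgatc

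The ratio of this sequence was 0.564 (0.462 to 0.686), with no long fragments involved. The other reads of Snord118 numbered 27 and 41.

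Of the imprinted snoRNA clusters, the Prader-Willi domain on chromosome 7, expressed from the paternal copy and known for its high expression in brain, is represented by 19 Snord genes, of which 17 had reads. They had 70 WT and 30 KO reads, a ratio of 0.422 (0.266 to 0.656). Nearly all came from Snord64, with 63 and 24 reads and a ratio of 0.375 (0.224 to 0.609), which was 0.334 (0.188 to 0.571) at 16–32 nt. Snord107 had 6 and 4 reads. Scaling by TMM and by median of ratios gave the domain 0.808 (0.509 to 1.26) and 0.771 (0.485 to 1.20), with intervals that include 1.

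The Snord116 copies, tandem repeats in introns of Snhg14, had next to no fragments. The only sequence found was of 16 nt, with 1 WT and 2 KO reads, and it lies in 15 of the copies. At this depth 3 reads equal 1.19 reads per 1000000 miRNA reads in WT and 1.17 in KO, so that levels at or under this are not distinguished from 0. Of the Dlk1-Dio3 domain, the other large imprinted cluster, 0 genes have names that start with Snord113 or Snord114 in this annotation.

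Markers of the cell types of the testis were read from miRNA hairpins. The miR-290 cluster, found in germ cells, had 2024 and 2661 reads, a ratio of 1.30 (1.22 to 1.37), with reads for 7 of its 9 hairpins. The 2 blood hairpins had a ratio of 0.800 (0.714 to 0.895), the 2 support cell hairpins 1.06 (1.03 to 1.10), the endothelial hairpin 1.003 and the 5 mesenchymal hairpins 1.02. Their part in the C/D ratios was not tested.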

How the data were processed

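Small RNA was extracted by the authors from 20 testes of each genotype with Isogen, made into libraries with the TruSeq Small RNA kit and sequenced on a MiSeq as single reads of 50 bp. The adaptor was clipped, by a tool not given in the sources used here, and the files list each sequence, of 11 to 48 nt, with its count; the deposited values are raw counts that the authors neither mapped nor scaled in these files. The submitters' processing notes name mm9. Coordinates here are GRCm38, from exact matches of sequences of at least 16 nt to the 141767 transcripts of GENCODE M21. No genome was used here, so a sequence found also outside these transcripts was not removed. Snord43 is typed as a miRNA there and is not included. The members, gene lists and tests were chosen with earlier results of these data known.

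Counts were divided by reads that matched inside 2202 GENCODE miRNA hairpins. The authors also scaled to miRNA reads, but to those they mapped to miRBase with SeqMap. KO/WT ratios have Clopper-Pearson intervals of the conditional binomial, shares have Wilson intervals, and quotients have the exact conditional interval of the odds ratio (scipy 1.17.1). With 1 library per genotype no model across replicates was fitted. TMM (edgeR 4.0.16) and median-of-ratios factors (DESeq2 1.42.0) served only as other scalings. The libraries held 6409305 WT and 5589326 KO reads, so that 3 reads are 4.68e-05% and 5.37e-05% of them. Sequences in several Snord genes were placed, for their ends, at the gene whose end they came nearest. The genes named are the 12 with the most reads, the 5 highest and 5 lowest ratios among genes with at least 50 reads, those of the Prader-Willi domain with at least 10 reads, and the genes of the lists for pre-rRNA processing and for host introns with at least 50 reads. Snord49a, Snord88a and Snord91a were named after their values were seen, and Snord14a, Snord14e and the Snord116 copies only to complete a count. Matching and intervals were tested on simulated data. Alternatives covered the base for scaling, distinct sequences, lengths, read minimums, shared sequences, the leading gene and the end limit. Those with 16–32 nt alone and with reads of the same length class as the base were chosen after seeing the data.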

Additional observations from a re-analysis of the deposited data

How the results depend on the processing

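No paired analysis was possible because each genotype has 1 library, and for the same reason no library could be left out. All values compare these 2 libraries, at a depth where 3 reads equal 1.19 and 1.17 reads per 1000000 miRNA reads, and genes with few reads have wide intervals. For results on the whole family, 67 values under other settings moved by less than the counting interval and 98 by more; for single named genes 111 moved by less and 106 by more, and in 53 of these 217 the ratio changed side of 1, 50 of them from below to above. The lower KO/WT ratio at 33–48 nt held under every setting tried, and the ratios at 16–19 and 20–23 nt stayed above 1. Those at 24–27 and 28–32 nt and the total changed side with the base for scaling.

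Scaled by TMM, the ratios from the shortest to the longest class were 2.004, 2.004, 1.67, 1.51 and 0.623, that of the Prader-Willi domain 0.808 and the total 1.28, with 4 genes lower and 20 higher. Of the 25 named genes below 1, 14 turned to above 1. Snord107, Snord118, Snord50a, Snord50b and Snord78 turned to 1.26, 1.24, 1.23, 1.25 and 1.27, Snord57, Snord104, Snord2, Snord93, Snord69 and Snord66 to 1.67, 1.65, 1.36, 1.79, 1.33 and 1.66, and Snord13, Snord14c and Snord22 to 1.74, 1.78 and 1.68. By median of ratios the classes were at 1.91, 1.91, 1.60, 1.44 and 0.595, the domain at 0.771 and the total at 1.22, with 5 genes lower and 19 higher, and the same 14 genes turned, the first 5 of them to 1.20, 1.18, 1.18, 1.20 and 1.21. Both scalings assume that most genes are equal, and most genes with sense reads were lower in KO per miRNA read. The counts of lower and higher genes have no all-gene share beside them at these scalings. Scaled by all reads, the classes were at 1.22, 1.22, 1.02, 0.919 and 0.379 and the total at 0.779, and 7 named genes turned to between 1.001 and 1.085. Scaled by all reads of the same length class, chosen after seeing the data, the ratio was 1.07 at 24–27 nt, 1.41 at 28–32 nt and 0.859 at 33–48 nt.

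With each distinct sequence counted once, the classes were at 1.21, 1.37, 1.11, 0.964 and 0.583, the domain at 0.908 and the total at 0.933. Snord107, Snord118, Snord32a, Snord50a, Snord50b and Snord68 turned to 1.18, 1.31, 1.10, 1.01, 1.08 and 1.11, and Snord69, Snord13 and Snord22 to 1.18, 1.61 and 1.39. Snord99, Snord42a and Snord14d turned to below 1, at 0.952, 0.859 and 0.9945. The 5′ share was then 24.1% in WT and 23.6% in KO, the 3′ share 38.7% and 38.4% and the inner share 37.2% and 38.1%. Snord57 held 2.28% and 1.64% of sequences and the 12 leading genes 29.8% and 28%.

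With fragments of 16–32 nt alone the total was 0.856 and 11 genes were lower. Snord33, Snord35a, Snord52 and Snord68 turned to 1.18, 1.18, 1.13 and 1.13, since their long fragments were left out, and Snord13 and Snord14c to 1.02 and 1.03. The 5′, 3′ and inner shares were 32.5%, 36.9% and 30.6% in WT and 33.4%, 36.1% and 30.5% in KO. Snord57 held 12.96% and 13.7% and the 12 leading genes 63.2% and 65.7%.

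The end limit moved the shares most. At 0 nt the 5′, 3′ and inner shares were 14.9%, 16.3% and 68.8% in WT and 16.1%, 18% and 65.9% in KO. At 6 nt they were 34.1%, 48.8% and 17.1% in WT and 37.1%, 48.7% and 14.2% in KO, and at 10 nt 35.8%, 56.5% and 7.78% in WT and 39.4%, 54.1% and 6.59% in KO. With sequences read at least 10 times the 5′ and 3′ shares were 33.2% and 30.5% in WT, and the 3 shares were 37.0%, 32.1% and 30.9% in KO. Without Snord57 they were 25.3%, 35.3% and 39.5% in WT and 26.3%, 37.6% and 36.1% in KO, and the total ratio was 0.649. Without sequences also in another structural RNA they were 29.6%, 31.5% and 38.9% in WT, and the 5′ and inner shares were 32.1% and 34.7% in KO.

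From 18 nt on, the ratio at 18–19 nt was 1.17, the inner KO share 30.8%, and Snord57 and the 12 leading genes held 12.1% and 62.9% of KO reads. The count of lower genes was 16 of 59 with a fold of 2 and 16 of 29 with at least 200 reads per gene. With no read minimum 41 of 94 genes were lower and 16 higher. Of these 16, 15 were Snord116 copies that share 3 reads. The share over all genes was not counted at these 3 settings. The causes of these differences were not tested beyond the settings' own construction.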

Other observations

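Some C/D box snoRNAs have names of another kind in this annotation and stand outside the values given above for Snord genes. The U3 snoRNA genes Rnu3a and Rnu3b1 to Rnu3b4, whose RNA acts in the first cleavages of pre-rRNA, had 428 WT and 392 KO reads together, a KO/WT ratio of 0.902 (0.785 to 1.04), with 373 and 358 of these reads at 16–32 nt. The 4 Rnu3b copies share all their 382 and 361 reads. In the imprinted Dlk1-Dio3 domain on chromosome 12, the snoRNA entries AF357425, AF357428, AF357341, DQ267100, DQ267101 and DQ267102 had 298 and 201 reads together, 0.664 (0.553 to 0.797), which TMM and median-of-ratios scaling would turn to above 1, since ratios over 0.522 and 0.547 do so. At 16–32 nt they had 231 and 175 reads. AF357428 led with 147 and 107 reads, and AF357341 had 66 and 24, of which 26 and 19 were of 16–32 nt. Far more reads lay in other snoRNA entries, whose box type was not assessed here and which were named after their values were seen. Gm26202 had 9288 and 1240 reads, 0.132 (0.124 to 0.140), with 193 and 176 at 16–32 nt. Gm25855 had 2170 and 1904 reads, 0.864 (0.812 to 0.920), and Gm22744 1096 and 330, 0.297 (0.261 to 0.336), both near Snord22 on chromosome 19. TMM and median-of-ratios scaling would turn the ratio of Gm25855 to above 1.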
